A study of Mus musculus with 4 samples.

Results

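The genes described here are the suppressors of cytokine signalling Socs1 to Socs6, their relative Cish, and the PIM kinase genes Pim1, Pim2 and Pim3, which are feedback and effector genes of cytokine signalling. They were chosen by symbol with results of these libraries in view, including the folds of Cish and Socs3, so every value of the 10 genes is given as a description and without a test. All 10 symbols were found among the 37681 gene IDs counted, 7 of them in the SOCS and CIS family and 3 in the PIM family. Transcripts were measured by mRNA sequencing in cultured bone marrow cells. The mice were wild-type C57BL/6, and the medium was DMEM to which fetal bovine serum and supernatant of L929 cells had been added; L929 cells release M-CSF, on which macrophages grow.

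The first library came from unstimulated cells without shRNA, and the second from cells without shRNA given 100 nM Pam3Cys4, a lipopeptide sensed by TLR2 with TLR1, for 5 h. The third came from unstimulated cells with an shRNA against lncRNA-COX2, a long noncoding RNA encoded next to the COX-2 gene Ptgs2, and the fourth from shRNA cells given the same stimulus. EV, a pair of letters in the titles of both libraries that lack the shRNA, is not explained by the labels, so whether those cells held a control construct is not given. With 1 library per group no difference could be set against spread between replicates, and each interval is a 95% interval that covers counting error only.

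Cytokine receptors without kinase activity of their own signal through bound JAK kinases, which phosphorylate STAT factors that then enter the nucleus. Several genes of the SOCS and CIS family are switched on by STATs. The family's proteins bind phosphorylated receptors or JAKs through an SH2 domain and bring them to a ubiquitin ligase through the SOCS box. For the genes switched on by STATs this closes a feedback loop. PIM proteins are constitutively active serine/threonine kinases that act on survival and translation, and because they need no activating phosphorylation their amount is set largely by transcription and turnover. In macrophages SOCS1 is known as a brake on interferon signalling, SOCS3 as a brake on signalling by IL-6 and G-CSF receptors, and CIS as a target and inhibitor of STAT5, the factor used by GM-CSF.

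Gene reads per library ran from 47385277 to 65826838. Of 9 macrophage markers 8 reached 5 CPM (counts per 1000000 gene reads, scaled) in the libraries without shRNA and 9 in those with it. Mertk, a receptor for apoptotic cells, was the marker under that level without shRNA, and the summed macrophage list lay between 5984 and 8491 CPM. The summed lists for B cells, NK cells, mast cells or basophils, erythroid cells and stromal or endothelial cells were at most 3.48 CPM in each library, and Cd3d, Cd3e and Cd3g were at 0. Of 7 dendritic cell markers at most 1 reached 5 CPM, and their sum was 7.04 CPM at rest and 26.7 CPM after Pam3Cys4 without shRNA. With shRNA it was 0.585 and 3.30 CPM, and Itgax, which macrophages can also express, was the highest of the list after Pam3Cys4. Of 10 granulocyte markers at most 1 reached 5 CPM, the neutrophil collagenase gene Mmp8 after Pam3Cys4 without shRNA, and Elane, Ltf, Ly6g, Ngp and S100a9 were at 0 in each library. Of 6 T cell markers only Lck was read. Without shRNA it had 1.02 and 1.43 CPM, and the shRNA libraries gave 2.96 and 7.89 CPM. The part of these lists in the results was not tested. In a bulk culture fewer cells of a type and less RNA per cell cannot be told apart.

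The libraries with and without shRNA also stood apart in Y-linked genes. Ddx3y had 3 and 4 counts without shRNA and 921 and 1116 with it, and Kdm5d had 0 and 1 against 730 and 665. Uty had 1 and 0 counts without shRNA and 320 and 334 with it. Eif2s3y went the other way but was near absence, with 3 and 6 counts (at most 0.119 CPM) against 0 and 0. A difference between source animals and an effect of the shRNA cannot be told apart in any ratio between shRNA states below, whereas each stimulation ratio compares libraries of 1 shRNA state. The level of lncRNA-COX2 was not analysed here.

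Promoter sequences are shown for the 3 members whose windows held a STAT-type or interferon-type motif, since these genes are known to be switched on by STATs. RefSeq windows of 300 bases (GRCm38.p6, 250 before to 50 after the start) were found for 7 of the 10 genes, in 8 windows because Pim1 has a pair of starts. There was no window for Socs2, Socs5 and Socs6. The windows were searched on both strands for TTCNNNGAA, the STAT core, for the form of it with 4 bases between TTC and GAA, for GAAA, any 2 bases and GAAA, which is the core of the interferon-stimulated response element (ISRE), and for the kappa B consensus. In the Cish stretch below (chr9:107296654-107296683, plus strand) and in the Socs3 stretch (chr11:117969367-117969616, minus strand) capitals mark TTCNNNGAA, and in the Socs1 stretch (chr16:10785537-10785786, minus strand) they mark a pair of overlapping matches to the ISRE core.
Cish: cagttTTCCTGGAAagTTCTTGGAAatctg
Socs3: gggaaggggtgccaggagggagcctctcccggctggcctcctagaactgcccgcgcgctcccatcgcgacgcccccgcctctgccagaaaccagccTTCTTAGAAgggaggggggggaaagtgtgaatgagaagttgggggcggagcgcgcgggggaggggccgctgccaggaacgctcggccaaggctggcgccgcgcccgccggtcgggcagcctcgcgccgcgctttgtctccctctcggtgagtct
Socs1: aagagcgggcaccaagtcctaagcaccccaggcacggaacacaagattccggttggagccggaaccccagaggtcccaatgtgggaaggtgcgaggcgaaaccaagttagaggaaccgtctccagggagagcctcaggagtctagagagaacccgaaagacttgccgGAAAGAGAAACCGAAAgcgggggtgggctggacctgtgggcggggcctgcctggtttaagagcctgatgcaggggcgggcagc

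The Cish stretch held TTCCTGGAA and TTCTTGGAA, which begin at bases 1 and 12 counted from the RefSeq start. Of 32851 RefSeq windows of the same length, 8.30% held TTCNNNGAA at least once and 0.457% held it 2 times or more. The Socs3 match, TTCTTAGAA, began at base -154, before the start. Matches to the ISRE core occurred in 3.44% of all windows, and the Socs1 matches, GAAAGAGAAA and GAAACCGAAA, began at bases -83 and -77 and share 4 bases. The form with 4 bases between and the kappa B consensus, found in 6.95 and 4.51% of all windows, had no match in the 8 member windows. These are matches of letters in 1 short window and say nothing of binding.

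A first group of members had low or moderate levels at rest and at least 2-fold higher levels after Pam3Cys4 (Cish, Socs1, Socs3, Pim1 and Pim2). Its stimulation folds ran from 2.28 for Socs1 with shRNA to 102 for Cish without, and Cish with shRNA reached only 2.62 CPM. Socs4, Socs5 and Socs6 stayed close to the same level in all 4 libraries. Pim3 was high throughout, and Socs2 was near absence. Cish, Socs1 and Socs3 are the family's classical cytokine-induced inhibitors. In the first group the size of the stimulation fold differed between the shRNA states, and not in 1 direction. It was smaller with shRNA for Cish, Socs1 and Pim1 and larger for Socs3 and Pim2.

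**Figure D1:**
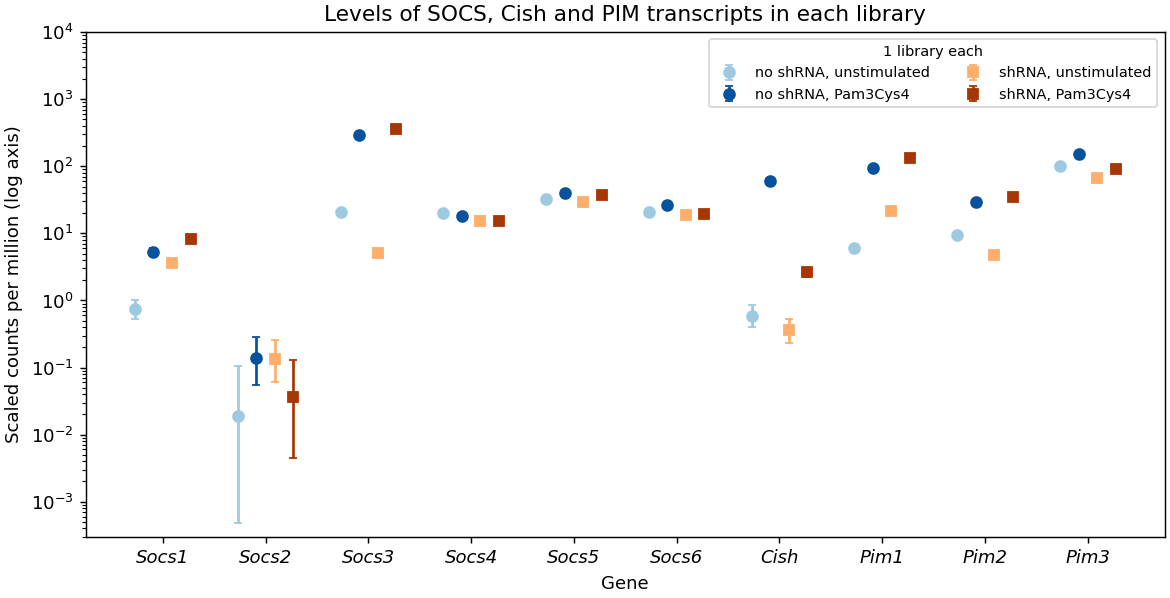
Levels in scaled CPM (log axis) of the 10 genes, with 1 point per library (circles without shRNA, squares with shRNA, dark after Pam3Cys4) and bars for the exact 95% Poisson interval. Cish stands at 60.5 CPM after Pam3Cys4 without shRNA and at 2.62 CPM or less in the other 3 libraries, while Socs4, Socs5 and Socs6 lie close together in all 4.

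Without shRNA, 9 of the 10 members reached 5 CPM in at least 1 of the compared libraries, and 5 were at least 2-fold higher after Pam3Cys4 (Socs1, Socs3, Cish, Pim1 and Pim2) and 0 lower. Over all 9555 genes measured in this comparison 7.07% were at least 2-fold higher and 6.51% lower, where a call needs a ratio of 2 or 0.5 and an interval that excludes 1. Socs1 and Cish reached the 5 CPM filter only in the stimulated library and so had to differ. The median log2 ratio was 1.62 over the 9 members and 0.00 over all genes. With library totals as the only scaling the median of all genes was -0.19, and 37.6% of the called genes were higher against 52.1% with the main scaling, while the same 5-member count was obtained.

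With shRNA, 8 members were measured, and 4 were at least 2-fold higher after Pam3Cys4 (Socs1, Socs3, Pim1 and Pim2) and 0 lower, beside 6.3% higher and 3.53% lower of 9601 genes. Here Socs1 and Pim2 passed the filter only in the stimulated library, and Cish stayed under it in both. The median log2 ratio was 0.81 over the members and 0.02 over all genes. With library totals alone the latter was -0.12, and 51.5% of the called genes were higher against 64.1%.

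**Figure D2:**
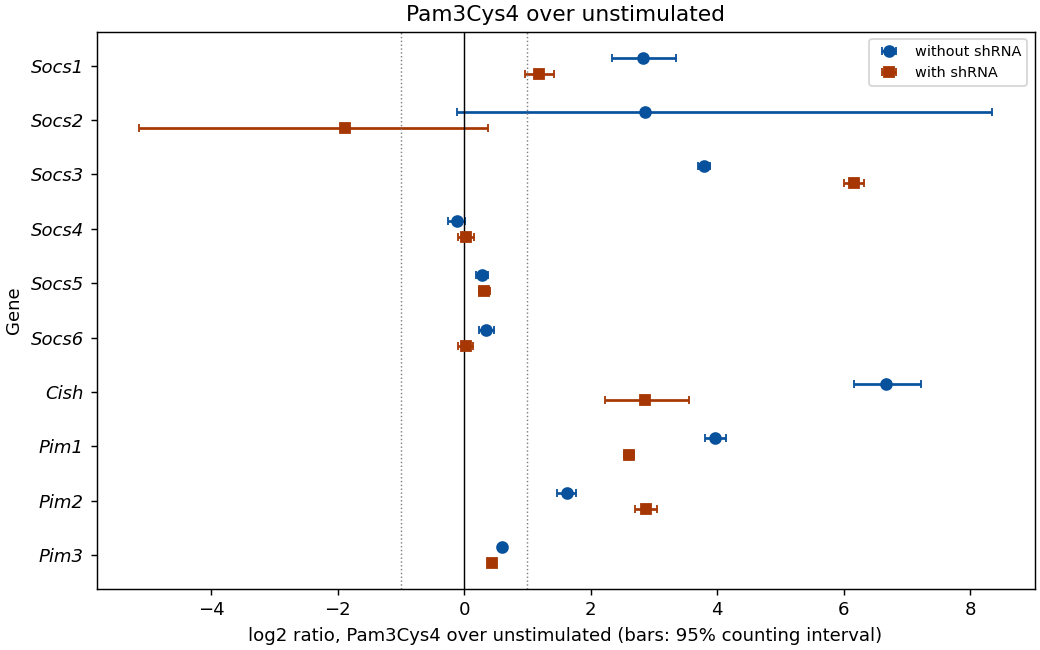
The log2 ratio of Pam3Cys4 over unstimulated for the 10 genes, without shRNA (circles) and with shRNA (squares), with 95% counting intervals as bars and dotted lines at 2-fold. Cish, Socs1 and Pim1 have larger ratios without shRNA, Socs3 and Pim2 have larger ratios with it, and the intervals of Socs2 span 1 in both states.

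Cish, which encodes the STAT5 inhibitor CIS, had 31 counts (0.595 CPM) in unstimulated cells without shRNA, 3054 counts (60.5 CPM) after Pam3Cys4 without shRNA, 24 counts (0.360 CPM) in unstimulated shRNA cells and 144 counts (2.62 CPM) after Pam3Cys4 with shRNA. Only the stimulated library without shRNA was high. The stimulation fold was 102 without shRNA (71.5 to 150) and ranked 14th from the top of 9555 genes. With shRNA it was 7.28 (4.71 to 11.7). After Pam3Cys4 Cish was thus 23.0-fold lower with shRNA (19.5 to 27.4), whereas at rest the ratio of 1.65-fold lower had an interval (0.938 to 2.94) that includes no difference. Its promoter is the one shown above with the pair of TTCNNNGAA matches. A pseudogene and an antisense model overlap Cish exons on the other strand (Gm17040 and Gm17041), and how strand was treated in counting is not given in the sources used here. Gm17041 had 0 counts in each library and Gm17040 at most 7, so reads assigned to them were few beside the 3054 of Cish.

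Socs3, which encodes the inhibitor of gp130 and G-CSF receptor signalling, had 1092 counts (20.9 CPM) and 14677 counts (290.5 CPM) without shRNA, at rest and after Pam3Cys4, and 340 counts (5.10 CPM) and 20102 counts (366 CPM) with shRNA. The resting level was the lower one with shRNA and the stimulated level the higher one. At rest Socs3 was 4.11-fold lower with shRNA (3.63 to 4.65), and after Pam3Cys4 it was 1.26-fold higher (1.23 to 1.29). The stimulation fold was 13.9 without shRNA (13.04 to 14.8) and 71.8 with it (64.5 to 80.1), so that most of the difference between the folds lay in the unstimulated libraries.

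Socs1, which encodes the inhibitor of JAK kinases downstream of interferon receptors, was low throughout, with 39 counts (0.748 CPM) and 268 counts (5.31 CPM) without shRNA and 241 counts (3.62 CPM) and 452 counts (8.23 CPM) with shRNA. The order of the 4 libraries was the same as for Pim1 below. The stimulation fold was 7.09 without shRNA (5.05 to 10.2) and 2.28 with it (1.94 to 2.67). At rest Socs1 was 4.83-fold higher with shRNA (3.44 to 6.97), below the CPM filter, and after Pam3Cys4 it was 1.55-fold higher (1.33 to 1.81).

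Socs4, Socs5 and Socs6, the members with long N-terminal regions and known chiefly for acting on growth factor receptors, stayed within 2-fold in each comparison. Socs5 had 1707, 2011, 1977 and 2034 counts in the order of the libraries given above (32.7, 39.8, 29.7 and 37.1 CPM). Socs6 had 1090, 1346, 1270 and 1064 counts (20.9, 26.6, 19.1 and 19.4 CPM), and Socs4 1040, 928, 1009 and 848 (20.0, 18.4, 15.1 and 15.4 CPM). The widest ratio of the 3 genes was that of Socs6, 1.37-fold lower with shRNA after Pam3Cys4. For Socs4 and Socs6 the direction of the stimulation ratio with shRNA depended on the scaling, 1.02 for both with the main scaling against 0.931 and 0.928 at the lowest.

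Socs2, which encodes the feedback inhibitor of growth hormone receptor signalling, had 1, 7, 9 and 2 counts, or at most 0.139 CPM. It did not reach the filter in any comparison, and each of its 4 ratios had an interval that includes no difference. The stimulation ratio was 7.22 without shRNA (0.928 to 326) and 0.270 with it (0.0284 to 1.30). The stimulation ratio with shRNA divided by the one without was 0.0373 for Socs2 (0.00279 to 0.501), an interval that excludes no difference. It rests on 1 to 9 counts per library, under the filter of 10 counts, and its interval is a large-count approximation. Socs7, the remaining gene of the family, was not among the 10 and had 1982, 2004, 2134 and 2584 counts.

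Pim1 was the PIM gene with the largest stimulation fold without shRNA. It had 311 counts (5.97 CPM) and 4730 counts (93.6 CPM) without shRNA and 1459 counts (21.9 CPM) and 7337 counts (133.7 CPM) with shRNA. Both shRNA libraries were above their counterparts without shRNA. Pim1 exons overlap those of an antisense gene, Gm26885, that is not in the count tables. At rest Pim1 was 3.67-fold higher with shRNA (3.25 to 4.16), and after Pam3Cys4 it was 1.43-fold higher (1.38 to 1.48). The stimulation fold was 15.7 without shRNA (14.0 to 17.7) and 6.10 with it (5.77 to 6.46).

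Pim2 had 497 counts (9.53 CPM) and 1484 counts (29.4 CPM) without shRNA and 320 counts (4.80 CPM) and 1940 counts (35.3 CPM) with shRNA. Like Socs3, it was lower with shRNA at rest and higher with shRNA after Pam3Cys4, by smaller amounts. The resting ratio was 1.99-fold lower (1.72 to 2.29), just inside 2-fold, and was past 2-fold under each of the other 3 scalings, at up to 2.16-fold lower. The stimulated ratio was 1.20 (1.12 to 1.29). The stimulation fold was 3.08 without shRNA (2.78 to 3.42) and 7.36 with it (6.53 to 8.31).

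Pim3 had the most reads of the PIM genes at rest, with 5258 counts (100.9 CPM) and 7748 counts (153 CPM) without shRNA and 4439 counts (66.6 CPM) and 4957 counts (90.3 CPM) with shRNA. The stimulation fold was 1.52 without shRNA (1.47 to 1.57) and 1.36 with it (1.30 to 1.41). With shRNA Pim3 was 1.51-fold lower at rest (1.45 to 1.58) and 1.70-fold lower after Pam3Cys4 (1.64 to 1.76), unlike Pim1, which was higher with shRNA in both states.

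Between shRNA states at rest, 7 members were measured, of which with shRNA 1 (Pim1) was at least 2-fold higher and 1 (Socs3) at least 2-fold lower, beside 7% of 9651 genes higher and 4.82% lower. The median log2 ratio was -0.40 over these members and 0.02 over all genes. After Pam3Cys4, 9 members were measured, of which with shRNA 0 were at least 2-fold higher and 1 (Cish) was at least 2-fold lower, beside 9% of 9702 genes higher and 5.58% lower. The medians were -0.10 over the members and 0.05 over all genes. Cish passed the filter there only in the library without shRNA.

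**Figure D3:**
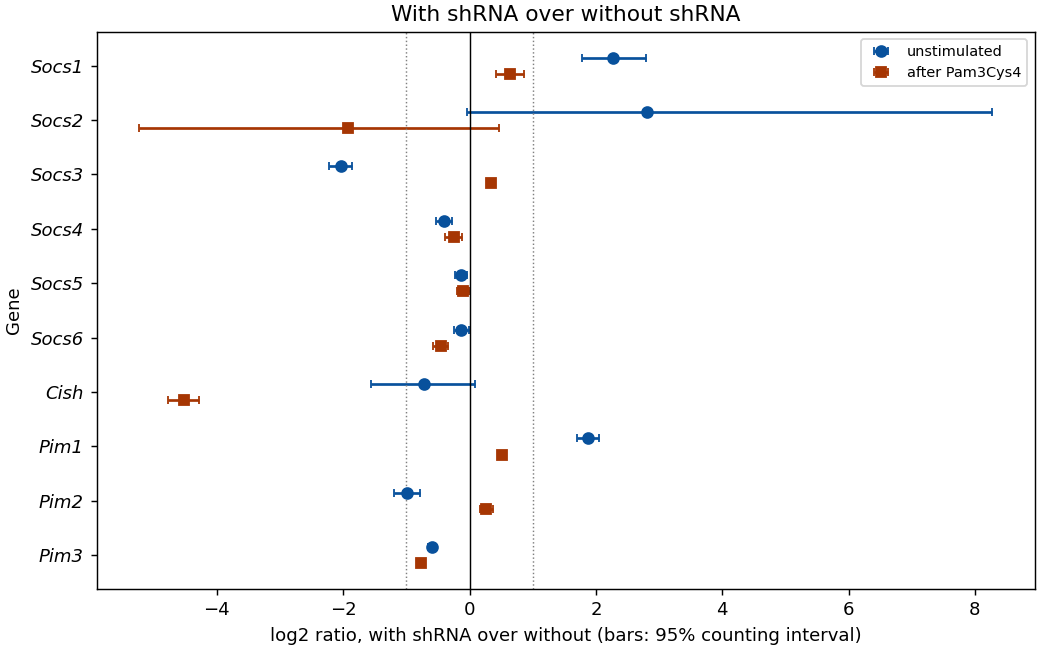
The log2 ratio of libraries with shRNA over those without for the 10 genes, unstimulated (circles) and after Pam3Cys4 (squares), with 95% counting intervals and dotted lines at 2-fold. Socs3 and Pim2 lie below 0 at rest and above 0 after Pam3Cys4, Socs1 and Pim1 lie above 0 in both states, and Cish after Pam3Cys4 is the lowest point at -4.53.

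To compare the stimulation folds themselves, the one with shRNA was divided by the one without. A gene needed 10 counts in every library and 5 CPM in its highest, which 9 members met. It was at least 2-fold larger for 2 members (Socs3 and Pim2) and at least 2-fold smaller for 3 (Cish, Socs1 and Pim1), beside 1.94% larger and 1.64% smaller of 9857 genes. The Cish fold was 14.0-fold smaller with shRNA (7.99 to 24.4), 2nd from the bottom of the 9857 genes. Socs1 was 3.11-fold smaller (2.15 to 4.51) and Pim1 2.57-fold smaller (2.26 to 2.92). The Socs3 fold was 5.17-fold larger (4.57 to 5.86), 12th from the top, and the Pim2 fold 2.39-fold larger (2.04 to 2.79). The other 4 members measured lay between 0.798 and 1.11. The median log2 value was -0.17 over the 9 members and 0.02 over all genes.

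**Figure D4:**
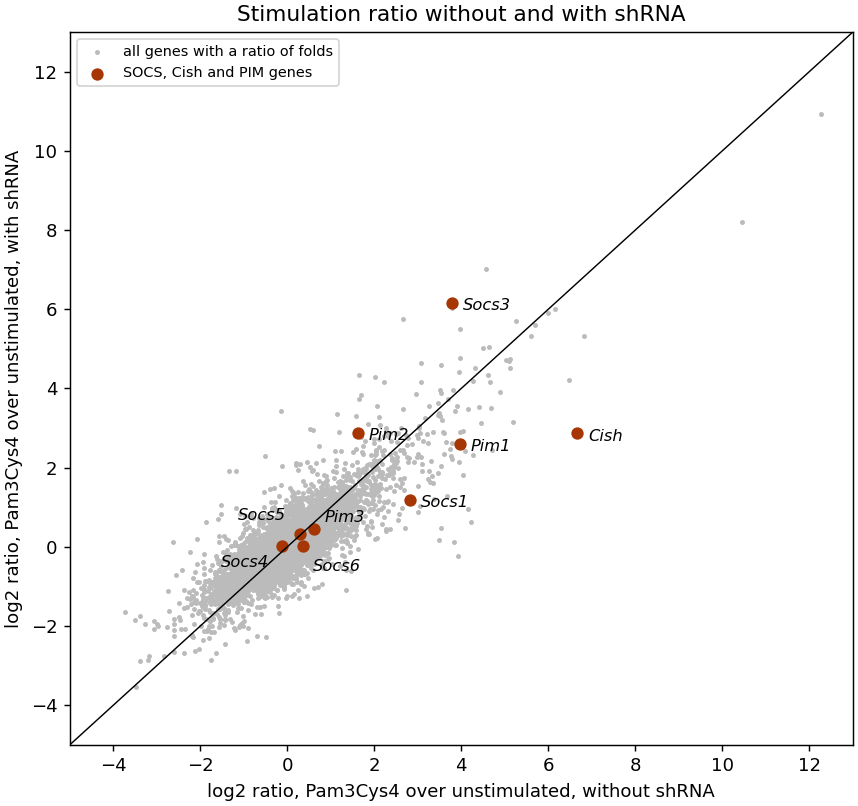
The log2 stimulation ratio without shRNA (x axis) against that with shRNA (y axis) for 9857 genes that met the count filter (grey), with 9 of the 10 genes marked and the line of equal ratios. Cish, Socs1 and Pim1 lie below the line, Socs3 and Pim2 above it, and Socs4, Socs5, Socs6 and Pim3 close to it.

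Per length of exon, in CPM per kilobase, the family totals were of like size in the stimulated libraries of both shRNA states while the make-up differed. The SOCS and CIS sums and shares cover the 7 members only. They leave out Socs7, which had 38.0, 39.7, 32.0 and 47.1 CPM in the order of the libraries given above. The summed SOCS and CIS level was 17.4 at rest and 122.98 after Pam3Cys4 in the absence of shRNA, and 11.6 and 139.6 in its presence. Socs3 made up 41.5 and 81.7% of this sum without shRNA and 15.2 and 90.7% with it. Cish made up 7.66% of it after Pam3Cys4 without shRNA and 0.293% with shRNA, and Socs1 made up 10.7% in unstimulated shRNA cells against 1.47% in those without. The summed PIM level was 46.7 and 101.6 without shRNA and 35.7 and 89.6 with it. Pim3 made up 88.9% of it at rest without shRNA and 41.5% after Pam3Cys4 with shRNA, where Pim1, at 44.4%, stood slightly above it.

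The order of the 10 genes per length differed between libraries. At rest Pim3 was highest in both shRNA states (41.6 and 27.5 CPM per kilobase), followed by Socs3 (7.25) without shRNA and by Pim1 (6.51) with it. After Pam3Cys4 Socs3 was highest in both (100.5 and 127), followed by Pim3 (63.2) without shRNA and by Pim1 (39.8) and Pim3 (37.2) with it. Socs2 was last in each library and Cish the next to last in all but the stimulated library without shRNA, where Cish was 5th at 9.42. Neighbours in this order whose counting intervals overlapped were Socs6 and Pim1 at rest without shRNA, and Socs3, Pim2 and Socs6 at rest with shRNA. Socs4 stood above Socs6 in each library by exon length, and below it when the longest transcript was used as the length.

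**Figure D5:**
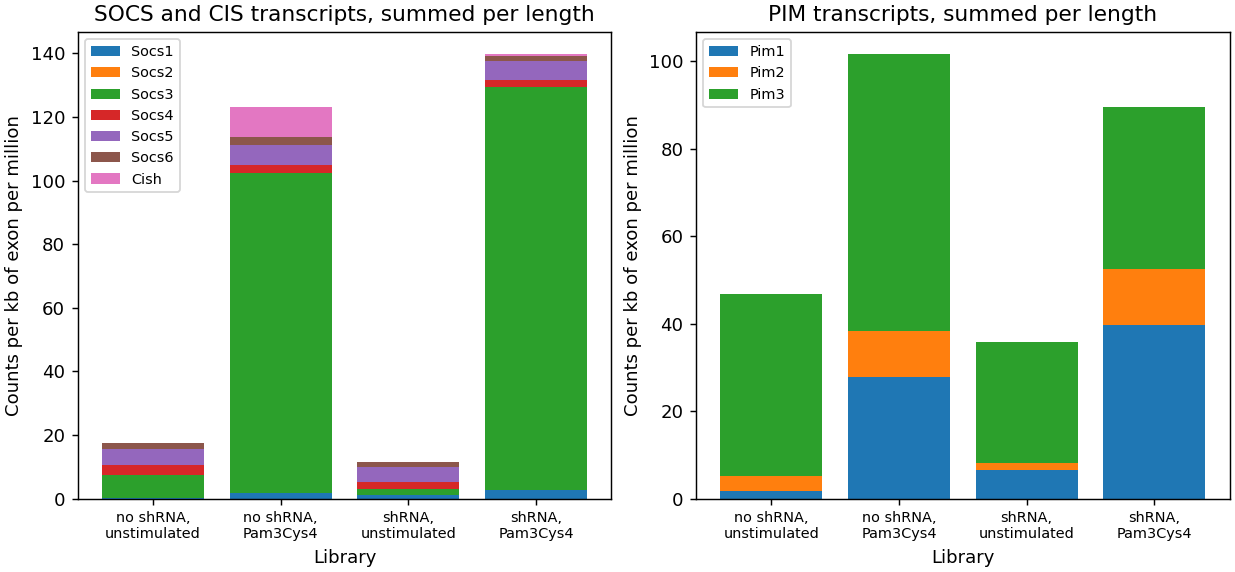
Summed levels of the 7 SOCS and CIS members, without Socs7 (left), and the PIM genes (right) in CPM per kilobase of exon, stacked by gene, with 1 bar per library. Socs3 makes up 81.7 and 90.7% of the stimulated SOCS and CIS bars, and Pim1 takes a larger part of the PIM bars after Pam3Cys4 and with shRNA.

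For Cish, Socs1, Socs3 and Pim1 the genes with the most similar profile were taken from 9752 genes, by the Euclidean distance between log2 CPM profiles over the 4 libraries, each centred on its own mean. Nearest to Cish were Lif (1.43), a cytokine of the IL-6 family, Phlda1 (1.49) and the uridine phosphorylase gene Upp1 (1.64). Lif had 19 and 1640 counts without shRNA and 18 and 275 with it, which like Cish is high mainly in the stimulated library without shRNA. Nearest to Socs3 were Tnf (0.77), the adenosine receptor gene Adora2b (0.87) and Cdc42ep2 (1.00). Nearest to Socs1 were the transcription factor gene Tfec (0.29), Creb5 (0.40) and Tnfaip2 (0.40). Nearest to Pim1 were Il1rn (0.23), which encodes the interleukin-1 receptor antagonist, Bcl3 (0.37), an atypical inhibitor of NF-kB, and the muramyl dipeptide receptor gene Nod2 (0.43). With 4 libraries these likenesses rest on 4 values per gene and say nothing of shared control.

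The ligands that act upstream of these genes were mostly absent at rest. Of 27 listed JAK-STAT cytokine genes only 6 were measured in the stimulation comparison without shRNA, and 6 were at least 2-fold higher, beside 7.07% of all genes. With shRNA 5 of 6 were, beside 6.3%. Csf2, Csf3, Il6, Lif and Osm without shRNA reached 5 CPM only in the stimulated library. With shRNA so did Csf3, Il27, Lif, Osm and the interleukin-15 gene Il15. The filter itself thus left little room for another direction. After Pam3Cys4, with shRNA 3 of 8 exceeded their level in cells without it at least 2-fold and 5 were lower. The shares of all genes were 9% and 5.58%. Here too Csf2 and Il6 passed the filter only without shRNA, and Il15 and Il27 only with it. For these genes the filter left little room for another direction. Csf2, which encodes GM-CSF, a ligand that signals through STAT5, had 2 and 874 counts without shRNA and 6 counts after Pam3Cys4 with shRNA. Osm, which encodes oncostatin M, had 165 and 3076 counts without shRNA and 259 and 1063 with it, so that its stimulation fold was 19.2 (16.4 to 22.6) and 4.98 (4.34 to 5.73). Lif had stimulation folds of 89.1 (56.8 to 148) and 18.5 (11.5 to 31.8). Il27, which encodes a subunit of interleukin-27, went from 3 to 410 counts with shRNA.

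Of 32 listed receptor genes 19 were measured without shRNA, with 5 at least 2-fold higher after Pam3Cys4 and 1 lower. With shRNA 20 were measured, with 2 higher and 0 lower. Over all genes 7.07% were higher and 6.51% lower without shRNA, and 6.3% and 3.53% with it. The 1 lower gene and the counts with shRNA are no result about the list. Between shRNA states at rest, 4 of 20 were at least 2-fold higher with shRNA and 2 lower, beside 7% and 4.82% of all genes. Il4ra, the interleukin-4 receptor chain, and Csf3r, the G-CSF receptor that SOCS3 restrains, were 3.35-fold and 3.16-fold higher after Pam3Cys4 without shRNA, and Lifr, the LIF receptor chain, was 5.44-fold lower. With shRNA at rest, Lifr was 16.7-fold lower and Il7r, the interleukin-7 receptor chain, 11.5-fold higher. Lifr (14.0 against 0.840 CPM) and Il7r (1.25 against 14.4 CPM) passed the 5 CPM filter there only in the library where they were higher. So did the listed genes Il21r and Il12rb2 at rest, and Csf3r and Lifr in the stimulation comparison without shRNA. For these genes the filter left little room for another direction. Of the 4 JAK genes 0 were at least 2-fold apart without shRNA, and Jak2 (3.52-fold) and Tyk2 (2.11-fold) were higher after Pam3Cys4 with shRNA. For so few genes, beside the stimulation shares given above, a count of 0 is no result about the list. Of the STAT genes, Stat3 was 2.53-fold and Stat2 2.33-fold higher after Pam3Cys4 without shRNA, and Stat2 was 3.14-fold higher with it. Stat2, which takes part in the response to interferon, was also 8.15-fold higher with shRNA at rest.

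Of 14 listed genes of other brakes on JAK-STAT signalling, 2 were at least 2-fold higher after Pam3Cys4 without shRNA and 1 with it. Over all genes 7.07% and 6.3% were higher, and 0 of the list were lower. So 1 of 14 with shRNA is no result about the list. With shRNA at rest 3 of the 14 were at least 2-fold higher, beside 7%, and 0 were lower. Usp18, which blocks the interferon receptor, had 201 and 1468 counts without shRNA and 7519 and 27568 with it, and was 29.3-fold higher with shRNA at rest (25.4 to 33.8). Cblb, a ubiquitin ligase gene, was 3.64-fold and the phosphatase gene Ptpn1 2.05-fold higher with shRNA at rest. Of the resting libraries, Usp18 passed the 5 CPM filter only in the one with shRNA. In the stimulation comparison without shRNA it passed only after Pam3Cys4 (3.86 against 29.1 CPM). For Usp18 in these comparisons the filter left little room for another direction. Of 9 listed genes of SOCS box partners, which form the ligase, and SPSB proteins, 6 were measured in the stimulation comparison without shRNA and 7 with shRNA, and 0 were at least 2-fold apart in either. With so few genes and the shares given for all genes, a count of 0 is no result about the list. Spsb1, which encodes another SOCS box protein, had 54 counts after Pam3Cys4 without shRNA and 280 with shRNA, and was 4.77-fold higher (3.56 to 6.51). At 1.07 and 5.10 CPM, it passed the 5 CPM filter there only with shRNA, and barely.

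Genes known as targets of the STATs were compared by the STAT concerned. Of 11 genes known as STAT3 targets in macrophages, 8 were at least 2-fold higher after Pam3Cys4 without shRNA and 4 with shRNA, beside 7.07% and 6.3% of all genes, with 0 lower in either state. The list's median log2 ratios were 1.16 and 0.74, and those of all genes 0.00 and 0.02. Il1rn was 16.2-fold (15.5 to 16.8) and 6.40-fold (6.26 to 6.55) higher in the respective states. Of 7 genes known as STAT5 targets, 3 of 6 measured were at least 2-fold higher after Pam3Cys4 without shRNA and 3 of 5 with it. The shares of all genes were 7.07% and 6.3%, and 0 of the list were lower in either state. The median log2 ratios of this list were 0.19 and 1.08. After Pam3Cys4, Osm was 3.14-fold lower with shRNA and the cyclin gene Ccnd2 was 98.6-fold lower, and Ccnd2 was 136-fold lower at rest as well. Ccnd2 passed the 5 CPM filter only in the libraries without shRNA. Osm, 1 of the genes higher after Pam3Cys4 in both states, passed it only in the stimulated libraries. For Osm in the stimulation comparisons the filter thus left little room for another direction. Bcl6, a transcriptional repressor gene on the same list, was 3.67-fold higher with shRNA after Pam3Cys4, so the list did not share 1 direction.

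Of 9 genes of PIM substrates and effectors, 1 (Myc) was at least 2-fold higher after Pam3Cys4, 2.06-fold without shRNA (1.90 to 2.24) and 3.74-fold with shRNA (3.45 to 4.07), and 0 were lower. Over all genes 7.07% and 6.3% were higher, so 1 of 9 is no result about the list. The cell cycle inhibitor gene Cdkn1a had a stimulation ratio of 1.57 with shRNA, and the forkhead factor gene Foxo3 one of 0.695. Between shRNA states 0 of the 9 genes were at least 2-fold apart, at rest or after Pam3Cys4. Over all genes 7% were higher with shRNA and 4.82% lower at rest, and 9% and 5.58% after Pam3Cys4. With 9 genes this count of 0 is no result about the list either.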

How the data were processed

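Per the submitters' processing notes, the tools were CASAVA 1.8, TopHat and HTSeq and the build was NCBIM37. Not given in the sources used here are other versions, the annotation and how strand was handled. What the authors deposited are counts of reads per Ensembl gene ID, for 1 library in each group. From 32.5 to 34.4% of the totals named no gene (27.0 to 29.9% aligned to several places) and were left out.

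Symbols came from GENCODE vM21 (32642 IDs matched). It is on another build than the counts, and was used only for names, exon lengths and the overlaps between gene models. Promoter sequences carry their own build. TMM factors from edgeR 4.0.16 (R 4.3.3) set the scale of the counts, which were compared as ratios, with exact conditional binomial intervals for pairs of libraries and delta-method intervals for ratios of folds, over all genes that reached 5 CPM in the higher of the compared libraries. A count of 0 was set to 3 for a ratio. The interval calculations were tested on simulated data. No p-value was computed.

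Members, the 10 gene lists (of 125 distinct genes 124 matched), marker lists and settings were chosen with earlier results of these data known. Named were all members, the 3 nearest profiles of 4 members, and up to 4 genes per list and comparison by absolute log2 ratio. The Y-linked genes, Socs7, Gm17040 and Gm17041 were looked up after values were seen. Alternatives were library totals, DESeq2 1.42.0 size factors, upper-quartile factors, other filters, a floor of 1 count and transcript length. Some genes of the lists are not reported here.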

Additional observations from a re-analysis of the deposited data

Results flagged for a closer look

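Socs3 and Pim2 were lower with shRNA than without in unstimulated cells and higher with shRNA after Pam3Cys4, with counting intervals that exclude no difference in both states. The ratio with shRNA over without was 0.244 at rest and 1.26 after Pam3Cys4 for Socs3, and 0.504 and 1.20 for Pim2. Over the 4 scalings the stimulated ratio ran from 1.19 to 1.26 for Socs3 and from 1.14 to 1.20 for Pim2. The difference between the states was not tested, since each rests on 1 library per group.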

How the results depend on the processing

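No paired analysis was possible because there was 1 library per group and no replicate. Of 50 member ratios, 2 changed direction with the scaling (Socs4 and Socs6 after Pam3Cys4 with shRNA, both near 1) and 1 its side of 2-fold (Pim2 at rest). The members at least 2-fold lower with shRNA at rest numbered 1 with the main scaling and 2 with library totals, DESeq2 size factors or upper-quartile factors. Without the filter, 2 members in place of 1 were higher with shRNA at rest, Socs1 being the other, and 5 in place of 4 were higher after Pam3Cys4 with shRNA (Cish added). With 10 CPM as the filter Socs1 is lost, so that 4 and 3 members were higher after Pam3Cys4 without and with shRNA, and 2 had a smaller fold with shRNA in place of 3. Without the filter, the counts over all genes were 1332 higher and 1242 lower for Pam3Cys4 without shRNA (676 and 622 with it), 1289 and 892 for Pam3Cys4 with shRNA (605 and 339), 1318 and 1482 for shRNA at rest (676 and 465) and 1610 and 1449 for shRNA after Pam3Cys4 (873 and 541). For the ratio of folds, 517 were larger and 451 smaller with 1 count per library as the only filter (191 and 162 with the main one), and 4 members were smaller in place of 3 (Socs2 added). Cish rests on 24 to 144 counts outside the stimulated library without shRNA, and Socs2 on at most 9.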
